A study of Mus musculus with 4 samples.

Results

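Mt1 and Mt2 encode the metallothioneins 1 and 2, and they were chosen as the 2 rows with those symbols among 31053 genes measured in single leukocytes of the mouse colon. Mt1 was the more abundant of the pair in every gated class that held both. Among the leukocyte classes described it stood highest in macrophages, dendritic cells and monocytes, lower in plasma cells, and lowest in T, NK and B cells. In macrophages, dendritic cells, monocytes and plasma cells both stress libraries held less Mt1 than both control libraries. Of all genes tested, 14.7% stood in that order in macrophages, 13.1% in dendritic cells, 18.3% in monocytes and 14.3% in plasma cells. The genes were chosen by their measured expression, because a difference between stress and control had already been seen in these libraries, so the stress and control levels below are a description and carry no test.

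The study sorted CD45+ leukocytes, cells that carry the pan-leukocyte surface protein CD45, from wild-type (WT) C57BL/6 mice, an inbred laboratory strain, and profiled them on the 10x Genomics droplet platform. The Stress mice went through daily restraint for 7 days, a rodent procedure that imposes psychological stress, and the Control mice had the control treatment. There were 2 libraries per group, and all 4 came from WT animals of the same strain, and their age is not stated. Whether each library came from its own animal is not stated, so any spread between libraries may be technical in part.

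Metallothioneins are small, cysteine-rich proteins of the cytosol and nucleus that bind zinc and copper and buffer their free levels. Transcription of both genes is switched on by the zinc-sensing factor MTF-1, which binds short metal response elements in their promoters, and they are also known to be induced by glucocorticoids, inflammatory cytokines and oxidative stress. In the gut they are best known from the epithelium, and in macrophages as genes induced during activation and during restriction of metals from microbes.

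Both genes lie on the plus strand of chromosome 8 of GRCm38, the assembly also called mm10. Mt2 (ENSMUSG00000031762) spans 94172664 to 94173568 and Mt1 (ENSMUSG00000031765) spans 94179082 to 94180327, in the GENCODE vM21 annotation. Each is protein coding, with 3 exons in its first listed transcript, and 5513 bases separate the end of Mt2 from the start of Mt1. The related Mt3 and Mt4 lie upstream, at 94152607 to 94154146 and 94137197 to 94139031. The Mt1 and Mt2 coding sequences are 186 bases each and 79.57% identical, with no shared run over 20 bases, and their 3' untranslated regions are 56.08% identical with no shared run over 10 bases. Reads long enough to span such runs can therefore be told apart, although the labels do not name the transcript end that was sequenced.

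The promoters are shown because the pair varied together across cell types and because they carry the element that MTF-1 reads. Each window holds 250 bases before and 50 after the RefSeq transcript start on GRCm38.p6, written 5' to 3' on the plus strand, chr8:94172368-94172667 for Mt2 and chr8:94178839-94179138 for Mt1. Capitals mark matches to the core of the metal response element, searched on both strands as TGCACNC and TGCGCNC, where N is any base.
Mt2: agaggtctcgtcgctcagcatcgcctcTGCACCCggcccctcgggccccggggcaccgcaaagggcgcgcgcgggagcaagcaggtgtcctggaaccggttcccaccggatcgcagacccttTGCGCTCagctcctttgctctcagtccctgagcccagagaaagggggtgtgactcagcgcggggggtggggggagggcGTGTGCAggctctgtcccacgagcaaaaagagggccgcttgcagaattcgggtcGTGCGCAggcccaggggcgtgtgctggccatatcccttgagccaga
Mt1: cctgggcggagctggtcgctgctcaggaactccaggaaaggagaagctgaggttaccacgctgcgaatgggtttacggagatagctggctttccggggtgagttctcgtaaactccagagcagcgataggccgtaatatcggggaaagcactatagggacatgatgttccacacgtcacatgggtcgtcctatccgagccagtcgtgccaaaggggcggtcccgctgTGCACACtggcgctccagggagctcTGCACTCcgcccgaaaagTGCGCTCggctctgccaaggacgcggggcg
The Mt2 window held 4 matches, 2 on each strand, and the Mt1 window held 3, all on the plus strand. The Mt1 matches lay within 26 bases of the RefSeq start on either side. Bases beyond the windows were not searched, so these counts are not those of the whole promoters. Where transcripts begin in these cells was not measured. No match overlapped another. Of 32851 RefSeq promoter windows of this length, 25.7% held at least 1 match, 1.969% at least 3 and 0.5175% at least 4. A match is a description of the letters, not evidence of a bound site. The RefSeq starts differ from the GENCODE gene starts by 46 bases for Mt2 and 7 bases for Mt1 in opposite directions, so the bases shown depend on which start is used. In a window drawn from the GENCODE start of Mt2, the match farthest upstream would lie outside, so the count of 4 depends on that choice as well.

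After barcodes with under 500 UMIs (unique molecular identifiers, each counting 1 captured RNA molecule) or over 10% mitochondrial UMIs were left out, 2562 cells remained in control 1, 5443 in control 2, 8333 in stress 1 and 4138 in stress 2. The median depth was 2938 and 2675 UMIs per cell in the controls and 2174 and 4547 in the stress libraries, which makes stress 1 the shallowest and stress 2 the deepest of the 4. Any 2 libraries shared between 3 and 19 cell barcodes. Cells were assigned to classes from marker genes. The 6 classes described here held 8524 cells, and 4860 barcodes with too few markers or with marks of more than 1 class stayed unassigned. Each class carried a UMI for every gene of its own marker list, and Ptprc, which encodes CD45, stood at 848 CPM, counts scaled to a sum of 1e+06, in macrophages against 33.3 CPM in 252 fibroblast-gated cells, 234 of them in control 1.

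Macrophages, the resident phagocytes, carried more Mt1 than any other of the 6 classes in 3 of 4 libraries. Levels here are UMIs of the gene in CPM, scaled to the UMIs of the class in that library. In macrophages Mt1 stood at 1066 and 505 CPM in controls 1 and 2 and at 191 and 337 CPM in stress 1 and 2, from 1335, 201, 254 and 588 UMIs. The groups did not overlap, and control 1 was near the fibroblasts of the same library, at 1284 CPM. The mean was 785 ± 397 CPM in controls and 264 ± 103 CPM in stress (SD, n = 2 each), a ratio of 2.98. The edgeR fit over all genes of the class, which scales by TMM rather than by totals alone, gave a log2 difference of -1.68 (SE 0.51), stress minus control. Leaving out control 1 moved it to -0.91, and without any of the other libraries it lay between -2.14 and this value. The libraries were spread unevenly over clusters. Cluster 31, where 84.8% of cells were gated as macrophages, held 113 cells of control 1. It held 13, 18 and 14 of control 2, stress 1 and stress 2, so control 1 alone stood apart there. Cluster 4, where macrophages were the leading class, held 126 and 105 cells of controls 1 and 2 and 595 and 336 of stress 1 and 2. The same libraries held 263, 62, 293 and 223 gated macrophages. In the 2 clusters that could be named macrophage, 27 and 31, the log2 difference was -1.05 (SE 0.43).

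Dendritic cells, the antigen-presenting cells that migrate to lymph nodes, followed. Their Mt1 level was 862 and 283 CPM in controls 1 and 2 and 109 and 136 CPM in stress 1 and 2. Both controls were above both stress libraries, with means of 573 ± 410 and 123 ± 19.6 CPM (SD, n = 2 each) and a ratio of 4.67. Almost all of the spread lay in the controls, where control 1 was far above control 2. The fitted log2 difference was -2.37 (SE 0.66), and it was -1.20 without control 1.

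Monocytes, the blood-derived precursors of gut macrophages, held 228 and 569 CPM of Mt1 in controls 1 and 2 and 93.8 and 110 CPM in stress 1 and 2. The groups again did not overlap, with means of 398 ± 241 and 102 ± 11.4 CPM (SD, n = 2 each), a ratio of 3.91 and a fitted log2 difference of -2.01 (SE 0.34). This difference rested on few cells. In control 2, 5 of 56 monocytes held 89.9% of the 178 Mt1 UMIs, and the highest of them held 41. When the 5 cells with most metallothionein UMIs were left out of every class and library, a step chosen after seeing the data, the monocyte log2 difference was -0.48. That step removes 5 of 47 and 5 of 56 control cells but 5 of 268 and 5 of 146 stress cells. The same step left -1.59 in macrophages, -2.21 in dendritic cells and -1.02 in plasma cells. Without control 2 the monocyte value was -1.21.

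Plasma cells, which secrete antibody and were the deepest class per cell, had a lower level with a tighter spread. Mt1 stood at 107 and 82.2 CPM in controls 1 and 2 and at 41.6 and 51.99 CPM in stress 1 and 2, from 250 to 973 UMIs per library. No stress library reached a control library, with means of 94.5 ± 17.5 and 46.8 ± 7.37 CPM (SD, n = 2 each) and a ratio of 2.02. The fitted log2 difference was -1.09 (SE 0.23), and leaving out each library in turn gave -1.34 to -0.77.

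T cells did not share this order. Their Mt1 level was 11.7 and 3.16 CPM in controls 1 and 2 and 7.86 and 16.1 CPM in stress 1 and 2, from 13 to 58 UMIs. The groups overlapped, and the fitted log2 difference was 1.00 (SE 0.60), with -0.043 when control 2 was left out. NK cells, the innate killer lymphocytes, held 10 Mt1 UMIs in 263 cells, with 3, 1, 0 and 6 in the libraries in the same order, too few to read a difference. B cells, added as a further class, had 7.85 and 0.98 CPM in controls 1 and 2 and 2.21 and 1.18 CPM in stress 1 and 2, and these also overlapped.

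**Figure D1:**
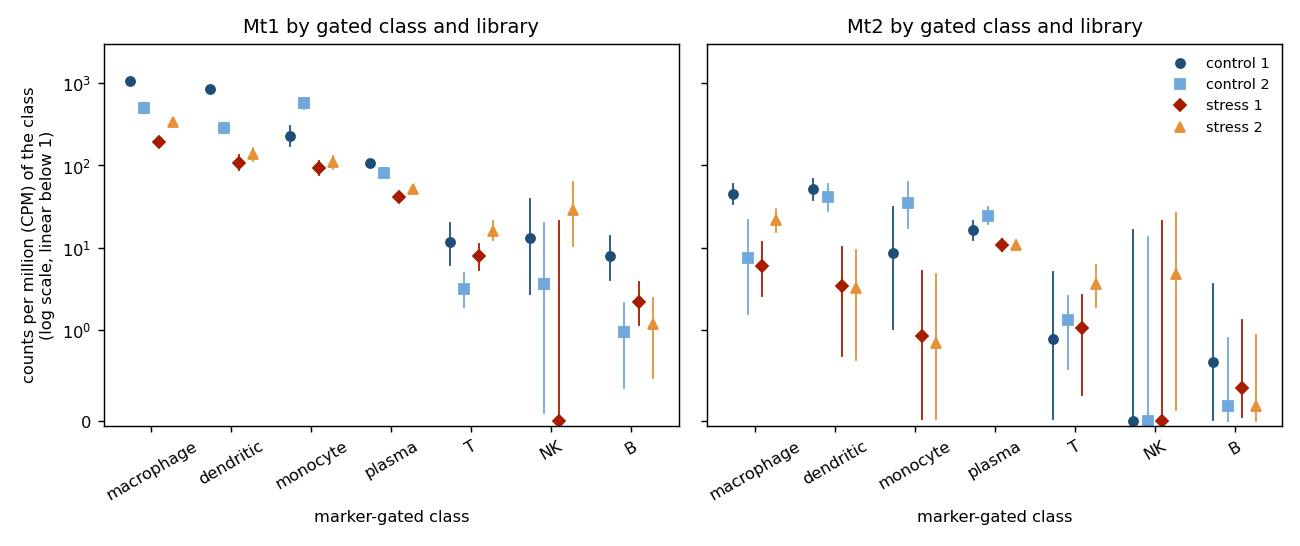
Mt1 (left) and Mt2 (right) levels per gated class, in CPM of the class on a log axis that is linear below 1. Each point is 1 library with its 95% exact Poisson interval, which covers counting error only; Mt1 in macrophages, dendritic cells, monocytes and plasma cells is lower in both stress libraries than in both controls, whereas T, NK and B cells overlap.

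Over the 4 libraries the median Mt1 level was 421 CPM in macrophages, 210 in dendritic cells, 169 in monocytes, 67.1 in plasma cells, 9.78 in T cells, 8.47 in NK cells and 1.70 in B cells. The ranges of macrophages, dendritic cells and monocytes over the libraries overlapped, but macrophages stood above dendritic cells within each of the 4 libraries. The lowest monocyte library, at 93.8 CPM, also lay below the highest plasma cell library, at 107 CPM. Within each library all 3 myeloid classes stood above plasma cells, and plasma cells above T, NK and B cells. This order is one of shares of all UMIs of a class, not of UMIs per cell. In plasma cells the 11 plasma markers alone summed to 2.11e+05 CPM, which leaves a smaller share for every other gene. How far this lowers their Mt1 level beside the other classes was not tested, and thinning to equal depth does not remove it. The exception to the order at the top was control 2, where monocytes, with their 5 high cells, were above macrophages.

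Mt2, the second inducible metallothionein, was rarer in each of these classes. In dendritic cells it stood at 51.9 and 41.4 CPM in controls 1 and 2, from 45 and 29 UMIs, and at 3.47 and 3.25 CPM in stress 1 and 2, from 3 UMIs each. The groups were far apart, and each stress library was at the level of the counting floor of 3 UMIs. The summed controls held 14.1 times the Mt2 level of the summed stress libraries (95% interval 6.17 to 39.6, counting error only), and the fitted log2 difference was -3.85 (SE 0.45). In control 2, 7 cells carried all 29 UMIs and 14 of them were in 1 cell. Admitting cells with up to 25% mitochondrial UMIs moved the log2 difference to -1.74, and classes taken from clusters gave -2.90.

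In monocytes Mt2 gave 8.60 and 35.2 CPM in controls 1 and 2, from 2 and 11 UMIs, and 0.93 and 0.85 CPM in stress 1 and 2, from 1 UMI each. The controls were higher, by a ratio of 26.8 on the summed counts with a counting interval from 6.07 to 245, a width that reflects 15 UMIs in all. In plasma cells Mt2 stood at 16.3 and 24.6 CPM in controls 1 and 2 and 10.8 and 10.7 CPM in stress 1 and 2. Both stress libraries were below both controls, with a log2 difference of -0.97 (SE 0.18) that stayed between -1.16 and -0.75 over leaving out each library. Macrophages held 45.5 and 7.53 CPM of Mt2 in controls 1 and 2 and 6.01 and 21.8 CPM in stress 1 and 2. Their mean was also lower in stress, at 13.9 CPM against 26.5 CPM in controls. There the groups overlapped, and the log2 difference of -1.30 (SE 0.86) turned to 0.98 without control 1 and to 0.11 in macrophages taken from clusters. T cells held 26 Mt2 UMIs, at 0.90, 1.33, 1.05 and 3.62 CPM in controls 1 and 2 and stress 1 and 2, and NK cells held 1. The remaining family members were nearly silent, since Mt4 had no UMI and Mt3, known from the brain, had none in macrophages, dendritic cells, monocytes, NK or B cells. In plasma cells Mt3 stood at 1.58 and 1.64 CPM in controls 1 and 2 and at 2.72 and 4.54 CPM in stress 1 and 2, a log2 difference of 1.12 (SE 0.48) that did not pass the edgeR threshold (adjusted p = 0.456).

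In the edgeR fits, 9 pairs of a metallothionein and a class passed the filter on low counts. No call is given for them, because the genes were chosen for their difference. Over all genes edgeR called 0.217% of 6926 in dendritic cells, 0.711% of 7731 in macrophages, 0.181% of 6064 in monocytes and 0.544% of 9928 in plasma cells.

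Cells differ in depth, so shares of cells with a UMI were also taken after each cell was thinned to 1000 UMIs, with shallower cells left out. At that depth 41.2 and 32.7% of macrophages carried Mt1 in controls 1 and 2, against 14.2 and 24.8% in stress 1 and 2. Dendritic cells gave 29.1 and 13.0% in the control libraries, and 8.02 and 10.3% in those of stressed mice. Monocytes gave 26.1 and 14.8% in the controls and 7.95 and 9.93% in stress, and plasma cells 8.26 and 6.14% against 3.29 and 3.27%. In all 4 classes the groups stayed apart, although the 95% exact interval of control 2 overlapped that of at least 1 stress library in each. Thinning left out 59 of 263 macrophages in control 1 and 7, 18 and 25 in the other libraries, and between 1 and 14 cells per library in dendritic cells, monocytes and plasma cells. Unthinned, the mean share over libraries was 55.9% in macrophages, 35.6% in dendritic cells, 29.4% in monocytes and 38.04% in plasma cells, whose median cell held 14894 UMIs against 5084 for macrophages.

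**Figure D2:**
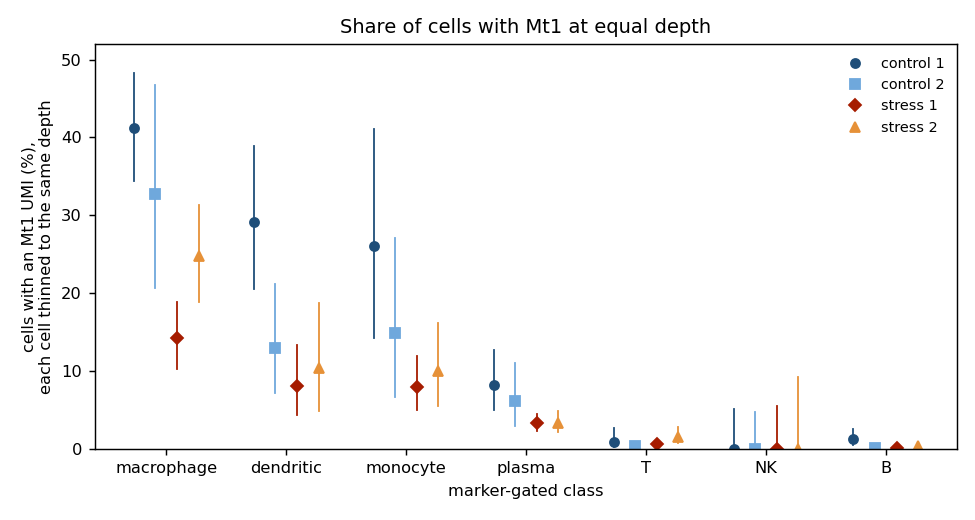
Percent of cells with at least 1 Mt1 UMI after each cell was thinned to 1000 UMIs, per class and library, with 95% exact Clopper-Pearson intervals. Macrophages range from 14.2 to 41.2%, and B cells, which set the level of background here, stay at or below 1.26%.

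B cells, median 2331 UMIs, were taken as the background, with a thinned Mt1 share between 0.05 and 1.26%, while no thinned NK cell held an Mt1 UMI. T cells, median 3071 UMIs, gave 0.32 to 1.497%, a range that overlaps this background. Within control 1 the T cell share was below that of B cells, at 0.92 against 1.26%. It was above in control 2 (0.32 against 0.05%), stress 1 (0.63 against 0.14%) and stress 2 (1.497 against 0.30%). That B cells hold only background was assumed. No barcode in the deposited matrices held under 500 UMIs, so free RNA could not be measured in empty droplets. The gate itself is a score with a margin, and 77 of 841 macrophages, 113 of 473 dendritic cells, 91 of 517 monocytes and 67 of 2292 plasma cells lay near its edge.

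RNA of other high-Mt1 cells was looked for beside these values. Fibroblast-gated cells held 1284, 607, 2195 and 1197 CPM of Mt1 in controls 1 and 2 and stress 1 and 2, although control 2 and the stress libraries had only 5, 8 and 5 of them. Of the 10 fibroblast markers, macrophages showed a UMI for 9 and 5 in the controls and 6 and 8 in the stress libraries, summing to 20.1 to 30.3 CPM in controls and 14.3 to 22.9 CPM in stress. Dendritic cells showed 6 and 2 in the controls and 2 and 1 in the stress libraries, summing to 2.86 to 18.4 CPM in controls and 1.08 to 2.31 CPM in stress. The list was highest in control 1, the library with most fibroblasts, and in dendritic cells it had the same order between the groups as Mt1. In macrophages Pdgfra alone was at 0 in control 1, while Dcn, Col1a2, Col3a1, Mgp and Dpt, among the defining markers, had UMIs in all 4 libraries. For each fibroblast marker UMI there were 0.041 Mt1 UMIs in the fibroblasts of control 1, 35.1 in its macrophages and 46.8 in its dendritic cells. That ratio was 0.022, 0.080 and 0.148 in the few fibroblasts of control 2, stress 1 and stress 2. In plasma cells the fibroblast list summed to 0 to 3.15 CPM in controls and 0.13 to 2.51 CPM in stress. In monocytes it summed to 6.39 to 8.60 CPM in controls and 10.2 to 12.1 CPM in stress, the opposite order to Mt1.

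Epithelial markers were seen in macrophages at 32.6 to 33.5 CPM in controls and 36.7 to 37.6 CPM in stress, with 8 and 7 of 10 markers in the controls and 9 and 10 in stress. In dendritic cells they summed to 45.7 to 89.9 CPM in controls and 64.8 to 70.3 CPM in stress, and in plasma cells to 80.8 to 92.7 CPM and 78.2 to 81.4 CPM. Mt1 had the opposite order in macrophages, where both controls had more of it, and the list overlapped between the groups in dendritic and plasma cells. In monocytes the epithelial list summed to 47.3 and 32.0 CPM in controls, with 4 and 3 of 10 markers seen, and to 16.7 and 22.2 CPM in stress, with 7 and 8 seen. There it had the same order as Mt1, which stood at up to 1182 CPM in epithelial-gated cells. The colonocyte keratin Krt20 was at 0 in macrophages in all libraries but stress 2, where every epithelial marker had a UMI, and in stress 1 it was the only marker at 0. Endothelial markers summed to 52.7 to 54.3 CPM in control macrophages and 47.3 to 49.8 CPM in stress, the same order as Mt1, with 5 and 4 of 8 markers seen in controls and 3 and 4 in stress. In dendritic cells they summed to 13.8 to 50.02 CPM and 36.8 to 47.4 CPM, and in monocytes to 30.1 to 47.96 CPM and 38.1 to 57.1 CPM, with overlap in both. Kdr, Tie1 and Cldn5, which define endothelium, were at 0 in macrophages in all 4 libraries. Of the same list, Pecam1, Flt1 and Eng had UMIs there in all 4 libraries. Cdh5 had them in controls 1 and 2 and stress 2, and Esam in control 1. The summed list does not measure endothelial RNA alone. In B cells of stress 2 it reached 84.8 CPM with Pecam1 as the only marker seen. The part of fibroblast, epithelial and endothelial RNA in the Mt1 levels was not tested.

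Within the classes Mt1 was uneven, and the subsets that follow were drawn after seeing the data. Cells gated as macrophages or monocytes were divided by C1q, the complement component made by mature macrophages. The high-C1q cells held 1177 and 559 CPM of Mt1 in controls 1 and 2 and 196 and 393 CPM in stress 1 and 2. Cells without C1q held 251 and 335 CPM in the controls and 94.2 and 120 CPM in stress, lower than high-C1q cells in each library and likewise lower in both stress libraries. The cells between, with low C1q, were few in the controls, where 6 cells of control 2 held 84 Mt1 UMIs and stood at 1989 CPM against 314 CPM in control 1, and 189 and 101 CPM in stress.

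Among dendritic cells the subset marked by Cd209a or Mgl2, lectins of conventional type 2 cells, was highest, at 1535 and 616 CPM in controls 1 and 2 and 217 and 186 CPM in stress 1 and 2. Cells with the lymph node homing receptor Ccr7 came next, at 948 and 390 CPM in the controls and 104 and 178 CPM in stress. The cross-presenting subset with Xcr1 or Clec9a was lower, at 298 and 124 CPM in the controls and 53.8 and 107 CPM in stress, and it had no Mt2 UMI in any library. The order of these 3 subsets was the same in every library, and in each of them both controls stood above both stress libraries. Cells with Siglech, a plasmacytoid marker, had Mt1 in stress 2 alone, where 1 cell held all 11 UMIs. Dendritic cells with none of these markers had the opposite order, at 49.9 and 40.7 CPM in the controls and 87.4 and 94.9 CPM in stress, from 1 to 10 UMIs per library. Since Mgl2, which helps to draw that subset, had a lower mean in stress dendritic cells, the subset's size is not compared.

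**Figure D3:**
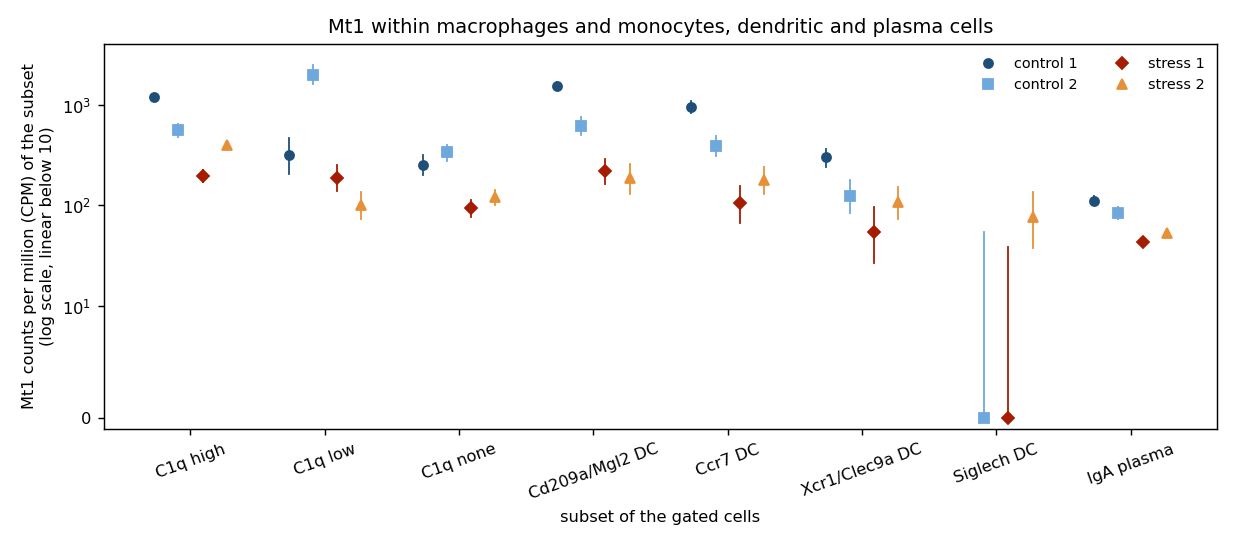
Mt1 level within subsets of macrophages and monocytes (by C1q), dendritic cells and IgA plasma cells, in CPM of the subset on a log axis that is linear below 10; points are libraries with 95% exact Poisson intervals. Cells with Cd209a or Mgl2 stand above Xcr1 or Clec9a cells in each library, and Siglech cells were absent from control 1.

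Plasma cells that carried IgA, the antibody class secreted into the gut, made up most of their class and held 111 and 83.9 CPM of Mt1 in controls 1 and 2 and 42.8 and 53.0 CPM in stress 1 and 2. The few IgG plasma cells were lower, at 19.7 and 16.3 CPM in the controls and 4.07 and 15.4 CPM in stress, from 2 to 6 UMIs per library. Within T cells Mt1 was higher in Cd8-bearing than in Cd4-bearing cells in all 4 libraries, at 13.3, 4.56, 14.0 and 29.6 CPM against 4.35, 2.22, 3.77 and 6.40 CPM in controls 1 and 2 and stress 1 and 2. These rest on 1 to 8 UMIs in the Cd4 subset, and the counting intervals overlap in all libraries but stress 2.

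In UMIs summed over the 4 libraries, the balance of the pair differed by cell type. Mt2 made up 3.15% of the Mt1 and Mt2 UMIs in monocytes (exact 95% interval 1.77 to 5.14%), 4.27% in macrophages (3.51 to 5.14%) and 6.42% in dendritic cells (5.12 to 7.93%). In plasma cells it made up 18.1% (16.7 to 19.6%), and in T cells 17.8% (11.98 to 24.99%). These intervals cover counting error only, and the shares of single libraries spread more widely. By library the plasma share was 13.2% in control 1, 23.1% in control 2, 20.7% in stress 1 and 17.0% in stress 2. The macrophage share was 4.09%, 1.47%, 3.05% and 6.07% in the same order. Plasma cells were higher in 4 of 4 libraries, by 14.8 percentage points over macrophages, 15.7 over monocytes and 12.5 over dendritic cells on average. A two-sided exact sign-flip permutation test over the 4 libraries gave p = 0.125 for each of these 3 comparisons (adjusted p = 0.125), the smallest value that 4 libraries allow, so the threshold of 0.05 could not be reached. The dendritic share was 5.67% in control 1, 12.8% in control 2, 3.09% in stress 1 and 2.33% in stress 2.

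**Figure D4:**
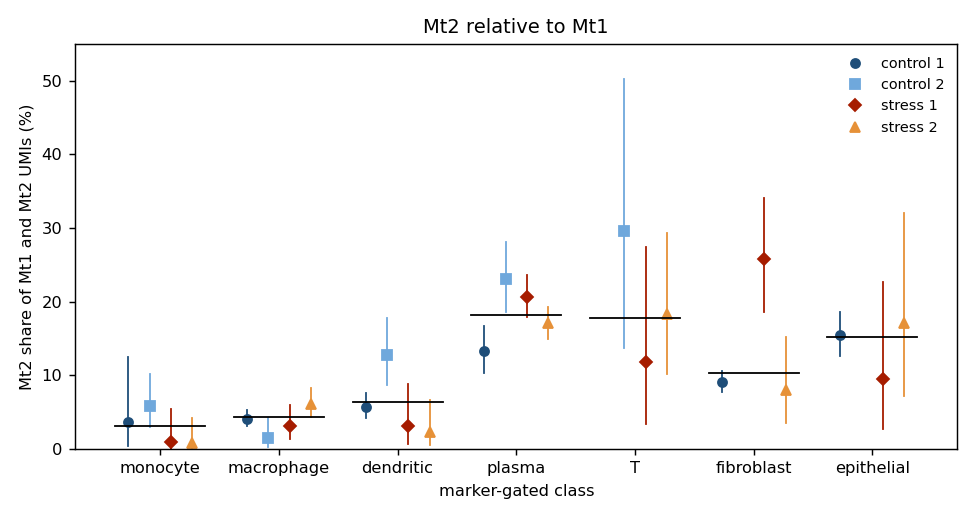
Mt2 UMIs as a percent of all Mt1 and Mt2 UMIs, per class and library with 95% exact Clopper-Pearson intervals (libraries with under 20 such UMIs are not drawn), and the value over all libraries as a black line. Plasma cells, at 18.1%, lie above macrophages, at 4.27%, in all 4 libraries.

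Macrophages, dendritic cells and plasma cells that held Mt2 mostly held Mt1 as well. Of 39 macrophages with an Mt2 UMI, 35 (89.7%) had Mt1, against 52% of the 802 without Mt2, although the first had a median of 3382 UMIs and the second 5111. In dendritic cells 27 of 28 had both, against 29.7% of those without Mt2, and in plasma cells 183 of 271 (67.5%) against 27.4%. These shares pool the cells of all 4 libraries, so differences between libraries and groups can enter them. Of the 28 dendritic cells with Mt2, 17 and 7 were from controls 1 and 2, and 2 from each stress library. At a similar depth of 10000 to 20000 UMIs per cell, 64.1% of 92 Mt2-bearing plasma cells and 26.3% of 904 others had Mt1. At least 10 Mt1 UMIs in a cell were seen in 37 macrophages of control 1, in 7 of control 2, in 2 of stress 1 and in 16 of stress 2. Across the 28 sums of a library and a class, Mt1 and Mt2 correlated at r = 0.81 on the log2(CPM + 10) scale, and at 0.84 after each class mean was subtracted. These sums come from only 4 libraries and are not independent.

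The genes whose level over the 28 sums was most like that of Mt1 and Mt2 together were, among 5265 genes with a mean of at least 20 CPM, Gusb, a lysosomal enzyme (r = 0.90), Rbm47, an RNA-binding protein (0.90), Clec4b1, a lectin of myeloid cells (0.89), Tnip3 (0.89) and Myadm (0.88). After class means were subtracted, which leaves differences between libraries, the first 5 were Mgl2 (0.83), Hpgd, a prostaglandin-degrading enzyme (0.80), Retnla, a secreted product of macrophages activated by type 2 cytokines (0.79), Tnip3 (0.79) and Clec4b1 (0.77). Retnla averaged 1428 CPM in control and 63.0 CPM in stress macrophages. Mgl2 averaged 234 and 69.5 CPM in control and stress macrophages and 338 and 143 CPM in dendritic cells, and Tnip3 averaged 506 and 242 CPM in dendritic cells. Gusb, in contrast, averaged 121 and 122 CPM in control and stress macrophages.

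Other genes of the same pathways were read from fixed lists of metal handling, antioxidant, glucocorticoid, interleukin 6 and heat shock genes. Of 122 such genes without Mt1 and Mt2, 90 could be tested in macrophages, and edgeR called 0 of them, beside 0.711% of all genes there. At an unadjusted p under 0.05 there were 7 with higher and 18 with lower values in stress, 27.8% of those tested beside 10.9% of all genes. Over the 7 classes edgeR called 0 of 554 tests of a gene in a class, with 88 (15.9%) at an unadjusted p under 0.05, beside 9.32% of the tests of all genes in these classes, and DESeq2 called 3. Of all genes edgeR called 0.152% in NK cells and 0% in T and B cells, where 827 and 1030 genes had an unadjusted p under 0.05 and DESeq2 called 10 and 18. The 3 pathway genes that DESeq2 called were Dusp1, a phosphatase induced by glucocorticoids, and Junb, a transcription factor subunit, in plasma cells, and Cebpb in B cells, where DESeq2 called 0.578% and 0.341% of all genes. In plasma cells Dusp1 stood at 129 and 93.0 CPM in controls 1 and 2 and 52.8 and 48.7 CPM in stress 1 and 2, with a log2 difference of -1.22 that edgeR did not call (adjusted p = 0.063).

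Of the zinc genes, 14 of 25 were tested in macrophages, 7 with a positive and 7 with a negative difference and a median of 0.12 on the log2 scale, where the median of all genes was -0.01. Mtf1, the zinc sensor, stood at 9.58 and 17.6 CPM in controls 1 and 2 and at 25.5 and 16.6 CPM in stress 1 and 2, and these overlapped. Slc30a1, the zinc exporter that MTF-1 also controls, had 21.6 and 27.6 CPM in controls 1 and 2 and 30.8 and 33.8 CPM in stress 1 and 2, a log2 difference of 0.37 (SE 0.28, edgeR adjusted p = 0.688). Any part of zinc or MTF-1 in the Mt1 levels was not tested. The most abundant zinc transporters, Slc39a7 and Slc39a1, gave -0.44 (SE 0.25) and -0.30 (SE 0.23). Of 9 copper genes tested, 6 were positive, with 0.26 (SE 0.24) for the chaperone Atox1 and 0.51 (SE 0.26) for Cox17. Of 13 iron genes 6 were positive, and the ferritin subunits Fth1 and Ftl1 gave 0.21 (SE 0.25) and -0.33 (SE 0.22). None of these passed the threshold.

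Of 15 glucocorticoid receptor genes and targets tested in macrophages, 12 were negative, with a median log2 difference of -0.38. Nr3c1, the receptor, differed by -0.30 (SE 0.21), Dusp1 by -0.40 (SE 0.19) and Zfp36, an RNA decay factor, by -0.42 (SE 0.18). At an unadjusted edgeR p under 0.05, 4 of the list were lower in stress and 1 was higher. The lower were Sult1a1 (-1.86), Errfi1 (-0.91), Anxa1 (-0.82) and Zfp36. Sgk1, a kinase induced by glucocorticoids, went the other way, at 160 and 158 CPM in controls 1 and 2 and 265 and 304 CPM in stress 1 and 2 (edgeR adjusted p = 0.131). Fkbp5, a target often read as a marker of receptor activity, gave 0.26 (SE 0.34), from 13.6 and 20.1 CPM in controls 1 and 2 and 20.3 and 19.5 CPM in stress 1 and 2.

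Of 13 heat shock genes tested in macrophages 11 were negative, with a median of -0.49. The smallest adjusted p was that of Dnajb1, a co-chaperone, at 114 and 153 CPM in controls 1 and 2 and 71.4 and 80.2 CPM in stress 1 and 2 (edgeR adjusted p = 0.104). The abundant chaperones Hspa8 and Hsp90ab1 gave 0.12 (SE 0.18) and -0.18 (SE 0.20). In dendritic cells the same list had 8 of 12 genes positive with a median of 0.18. Any link of these genes to the Mt1 levels was not tested. The antioxidant list, with targets of NRF2, had 7 positive and 8 negative genes in macrophages. Its most abundant members were Txn1, thioredoxin, at 0.79 (SE 0.20, edgeR adjusted p = 0.131) and Gpx1 at 0.22 (SE 0.18). At an unadjusted edgeR p under 0.05, 4 of the list were lower and 3 higher in stress. The lower were Hmox1 (-1.545), Gclc (-0.97), Sqstm1 (-0.78) and Gclm (-0.71). The higher were Txn1, Slc7a11 (1.00) and Gsr (0.92). The interleukin 6 and STAT3 list had 6 positive and 6 negative, with Junb at -0.42 (SE 0.19) and Cebpb at 0.23 (SE 0.23). Of the neighbours on the chromosome, Herpud1, a gene of the endoplasmic reticulum stress response, gave -0.65 (SE 0.21, edgeR adjusted p = 0.216) and Nup93, a nuclear pore subunit, 0.24 (SE 0.52). The sign of Cebpb, Ftl1, Hsp90ab1 and Hspa8 turned when macrophages were taken from clusters, and that of Cebpb, Fth1, Ftl1, Nup93 and Slc39a1 when 1 library was left out. Mtf1, Slc30a1, Nr3c1, Sult1a1, Errfi1, Anxa1, Sgk1, Fkbp5, Dnajb1, Hmox1, Gclc, Sqstm1, Gclm, Slc7a11 and Gsr were named after their values were seen.

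**Figure D5:**
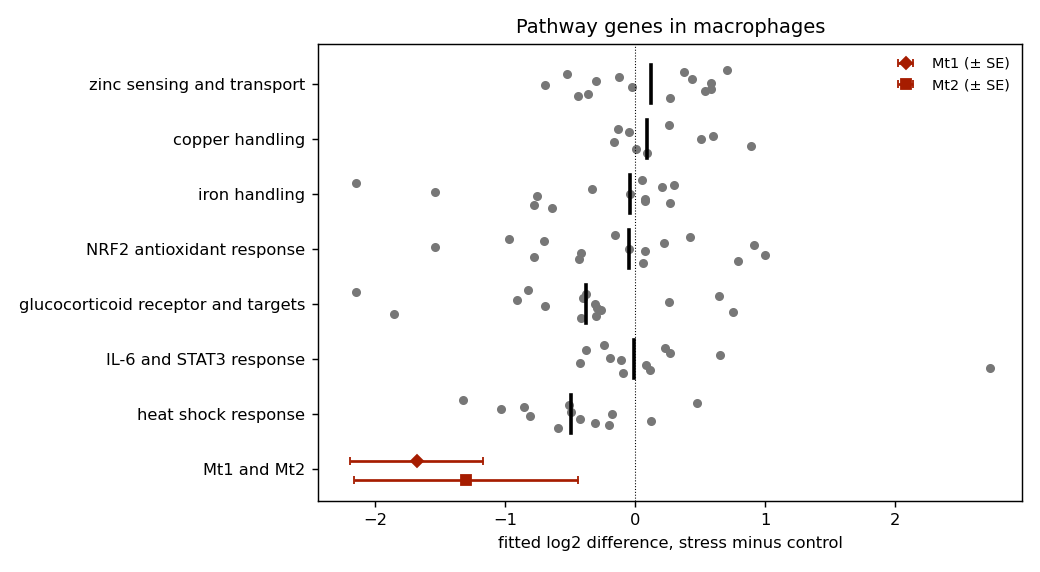
Fitted log2 difference, stress minus control, in macrophages for each gene of 7 pathway lists that passed the filter on low counts (grey points), with the list median as a black bar, beside Mt1 and Mt2 (red, ± SE). No pathway gene passed the adjusted threshold of 0.05, and medians range from -0.49 for heat shock genes to 0.12 for zinc genes.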

How the data were processed

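The authors deposited raw UMI counts for each gene in each barcode, made with Cell Ranger (versions 5 and 5.0, per the submitters' processing notes; software 3.1.0, per the file headers) against mm10. No source names the gene annotation they used. The 4 matrices hold 24915 barcodes, none with under 500 UMIs.

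Each kept barcode was given the class whose markers had the highest mean z-scored log-normalised level, if at least 3 were detected and the lead was at least 0.25. NK cells also had no Cd3 UMI. No doublet caller was used in the main results, since barcodes marked for 2 classes were left unassigned, and leaving out the highest Scrublet scores was an alternative. The caller's automatic threshold marked 0.23, 1.60, 0.012 and 0.024% of the libraries. Intervals and floors cover counting error only, at a confidence of 95%.

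Counts were summed per library and class, with 176462 to 18714056 UMIs per sum over the 7 classes. The quasi-likelihood test of edgeR 4.0.16, run robustly under R 4.3.3, used TMM scaling, the filterByExpr filter, Benjamini-Hochberg adjustment and a threshold of 0.05, and was tested on simulated counts. DESeq2 1.42.0, another filter, normalization, mitochondrial limit, class definition and leaving out libraries were alternatives. Clusters used scanpy 1.11.5 and leidenalg 0.10.2. Named pathway genes are the 2 most abundant members of each list and any past the threshold. The members and all lists were chosen with earlier results of these data known.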

Additional observations from a re-analysis of the deposited data

How the results depend on the processing

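Of the alternatives to the Mt1 log2 differences in macrophages (12 alternatives), dendritic cells (12), monocytes (11) and plasma cells (12), all were negative, with ranges of -2.14 to -0.91, -3.02 to -1.20, -2.46 to -0.48 and -1.34 to -0.77. Leaving out each library gave -2.14 to -0.91 in macrophages, -3.02 to -1.20 in dendritic cells, -2.46 to -1.21 in monocytes, -1.34 to -0.77 in plasma cells and -0.043 to 1.68 in T cells for Mt1, and -2.49 to 0.98 in macrophages and -4.10 to -3.57 in dendritic cells for Mt2. An arm left with 1 library is assumed to vary like the other. Monocyte Mt1 was -0.48 without the 5 cells of most metallothionein UMIs per class and library, chosen after seeing the data. Mt2 was 0.11 in macrophages from clusters, and in dendritic cells -1.74 at up to 25% mitochondrial UMIs and -2.90 from clusters. From clusters the mean levels were 1076 CPM for Mt1 and 89.3 CPM for Mt2 in macrophages and 3.104 CPM for Mt2 in T cells, and Mt2 in macrophages was 40.1 CPM as a mean over cells. No cluster could be named monocyte, so no value exists there. Without thinning, the shares with Mt1 were 29.4% (monocytes), 55.9% (macrophages), 35.6% (dendritic cells), 38.04% (plasma cells), 2.78% (T cells) and 3.86% (NK cells). Counts of all called genes moved most. With no filter they were 103 in monocytes, 334 in macrophages, 175 in dendritic cells, 344 in plasma cells, 236 in T, 29 in NK and 248 in B cells, against 11, 55, 15, 54, 0, 5 and 0. At up to 25% mitochondrial UMIs they were 3 in monocytes and 29 in B cells, without high doublet scores 20 in monocytes, from clusters 1 in macrophages, 38 in dendritic and 8 in B cells, with DESeq2 10 in T, 3 in NK and 18 in B cells, and without the 5 cells 4 in B cells. Leaving out a library gave 19 to 99 in monocytes, 84 to 285 in macrophages, 53 to 276 in dendritic cells, 20 to 156 in plasma cells, 1 to 1566 in T, 0 to 56 in NK and 11 to 615 in B cells. Pathway genes in macrophages turned from clusters, to -0.63 for Cebpb, 0.16 for Ftl1, 0.18 for Hsp90ab1 and -0.025 for Hspa8, and leaving out a library gave -0.069 to 0.64 for Cebpb, -0.14 to 0.70 for Fth1, -0.60 to 0.037 for Ftl1, -0.30 to 0.60 for Nup93 and -0.47 to 0.067 for Slc39a1. The causes were not tested.

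Same-numbered libraries deviated from their group means with a correlation between -0.24 and -0.02. With 2 libraries per group this cannot decide whether same-numbered libraries were handled together. The labels give them only a shared number. With the replicate number as a block, edgeR called 30 genes in monocytes, 35 in dendritic cells, 3 in T and 16 in NK cells, 63 in macrophages, 53 in plasma cells and 0 in B cells, and Mt1 was -1.62 in macrophages, -2.13 in dendritic cells, -1.90 in monocytes and -1.08 in plasma cells. A block with the numbers crossed, chosen after seeing the data, called 22 in monocytes, 37 in macrophages, 48 in dendritic cells, 176 in plasma cells, 96 in T, 30 in NK and 230 in B cells.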
